A study of Arabidopsis thaliana with 4 samples.

Results

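Plates TC00 to TC13 hold the last stretch of array tiles in a contiguous order of plate identifiers. Trimethylation of histone H3 at lysine 36 (H3K36me3) was profiled on the array in Arabidopsis thaliana seedlings. Not every well before TC00 has a value. The tiles were chosen by identifier alone, as set TC, plate number 0 to 13, with a value on all 4 arrays. This gave 1282 of the 21685 tiles with a value. They fill 13 plates of 96 wells and 34 wells of plate TC13, with no missing well between the first tile and the last. The stretch follows plate TB99, and the next plate of set TC analysed here is TC17.

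All material came from untreated Col-0 seedlings grown in liquid MS medium for 10 to 11 days, with no other genotype or treatment. Chromatin immunoprecipitation (ChIP) with an antibody to H3K36me3 was set against input DNA of the same extract, and both were amplified, given the dyes Cy5 and Cy3 and put on the same array. The study has 2 extract pairs, called replicates 1 and 2, each hybridised on 2 arrays with exchanged dyes. Both arrays of a pair carry identical deposited values at all 21685 tiles, so each pair counts as 1 replicate. The labels do not say whether the extract pairs came from separate cultures, so the spread between them may be technical. Whole seedlings mix many cell types, so a share of cells with the mark and a density of the mark per cell cannot be told apart. No tile has a gene name here, so the seedling label could not be checked against marker genes.

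H3K36me3 is laid down during transcription elongation by SET-domain methyltransferases that travel with RNA polymerase II, in Arabidopsis chiefly SDG8. It is read by chromodomain proteins such as MRG1 and MRG2. In plants it is known from the bodies of transcribed genes, and it tends to be low in silent heterochromatin and over genes held by Polycomb proteins.

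Values are log ratios as deposited, centred on the median of each replicate over all tiles. For the base of the logarithm and the direction of the ratio, the sources used here give nothing. High and low therefore refer to the ratio and not to the mark. If the ratio ran input over ChIP, every high and low would change places. No table used here pairs the identifiers with genes, positions or sequences, so tiles are described by plate, row and place in the order.

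Over the 1282 tiles the mean ratio was 0.81 in replicate 1 and 0.67 in replicate 2, or 0.74 ± 0.10 (SD, n = 2). The median was lower, at 0.46, because the distribution had a narrow low part and a long high part. The lower quartile was -0.24 and the upper quartile 1.71, and the extremes were -1.29 and 3.21. A mixture of normal distributions fitted to all tiles of the series separated an upper population, with values of 0.97 and above, from a lower one, with values of 0.46 and below. Of the tiles on TC00 to TC13, 509 (39.7%) belonged to the upper population, against 28.4% of all tiles. The lower population held 640 (49.9%), against 63.8% of all tiles, and 133 (10.4%) lay between. With the upper of 3 components alone, the shares were 22.1% on the stretch and 15.2% over all tiles. Neighbouring tiles are not independent, so no interval is given.

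**Figure D1:**
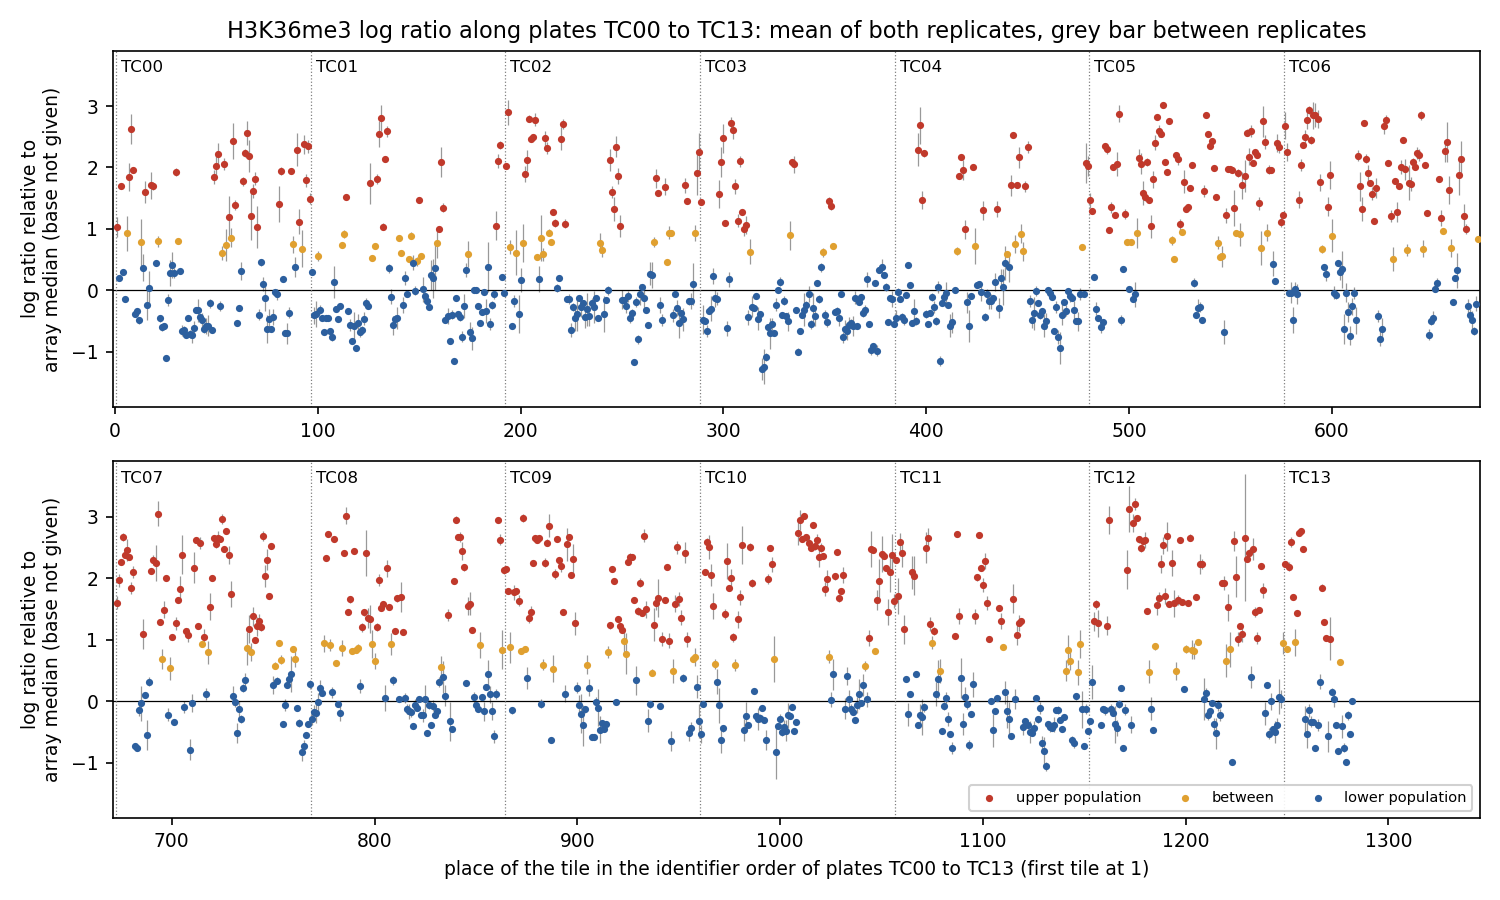
Log ratio relative to the array median (base not given) of each of the 1282 tiles, in identifier order, with TC00 to TC06 above and TC07 to TC13 below. Points are means of both replicates, coloured by population, and each grey bar joins the 2 replicate values. Upper tiles make up 23.3% of TC00 to TC04 and 53.5% of TC05 to TC10, against 28.4% of all tiles.

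Each tile was also tested against the array median with limma over all 21685 tiles (two-sided, n = 2, Benjamini-Hochberg adjusted threshold of 0.05). On TC00 to TC13 685 tiles (53.4%) had a higher ratio than the array median, where 38.9% of all tiles did. A lower ratio was called at 275 tiles (21.5%), where 32.3% of all tiles had one, and 322 (25.1%) did not pass. The array median is a property of everything on the array, so these calls do not separate tiles with the mark from tiles without it. With no centring, 390 tiles (30.4%) were above 0, against 20.9% of all tiles, and 733 (57.2%) were below, against 69.6%. With a minimum size of 0.5 (limma's treat), 559 (43.6%) were above the array median, against 30.8% of all tiles, and 20 (1.56%) below, against 4.86%. For 958 of the 960 called tiles the replicates shared their sign. All 509 upper tiles and all 133 tiles between the populations were among those called above. The lower population supplied all 275 tiles called below and also 43 called above.

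The profile along the plates had a lower first section and a higher second one. The first plate, TC00, averaged 0.64 in replicate 1 and 0.45 in replicate 2. TC01 averaged 0.23 and 0.12, in the same replicate order that holds for all plates below. TC02 came back to 0.60 and 0.52. TC03 was the lowest plate of the 14, at 0.12 and -0.02, and the only one with a mean below 0 in either replicate. TC04 averaged 0.33 and 0.19. The share of upper tiles was 34.4% on TC00, 15.6% on TC01, 29.2% on TC02, 17.7% on TC03 and 19.8% on TC04. Among these first plates, TC01, TC03 and TC04 lay below the share of 28.4% over all tiles.

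At TC05 the ratio stepped up. This plate averaged 1.45 in replicate 1 and 1.34 in replicate 2, which was 1.12 and 1.15 above TC04. It had both the highest mean and the highest share of upper tiles (67.7%, 65 of 96) among all 231 plates of the series. Limma called 80 of its tiles (83.3%) above the array median and 7 (7.29%) below, against 38.9% and 32.3% of all tiles. These calls use the ratios on which the plate ranked highest, so they follow in part from that ranking. The means of TC06 were 1.19 and 1.02, and those of TC07 were 1.15 and 1.01. TC08 was lower within this section, at 0.88 and 0.76. TC09 reached 1.19 and 1.01, and TC10 reached 1.17 and 0.997. Upper tiles made up 55.2% of TC06, 53.1% of TC07, 37.5% of TC08, 55.2% of TC09 and 52.1% of TC10.

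The last plates alternated. TC11 averaged 0.48 in replicate 1 and 0.37 in replicate 2, TC12 averaged 1.14 and 0.96, and the partly filled TC13 averaged 0.59 and 0.51. Their shares of upper tiles were 29.2%, 51.0% and 35.3%. Every step from one plate to the next had the same sign in both replicates. The SD between replicates of a plate mean was at most 0.13, whereas plate means spanned 1.35 from TC03 to TC05.

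**Figure D2:**
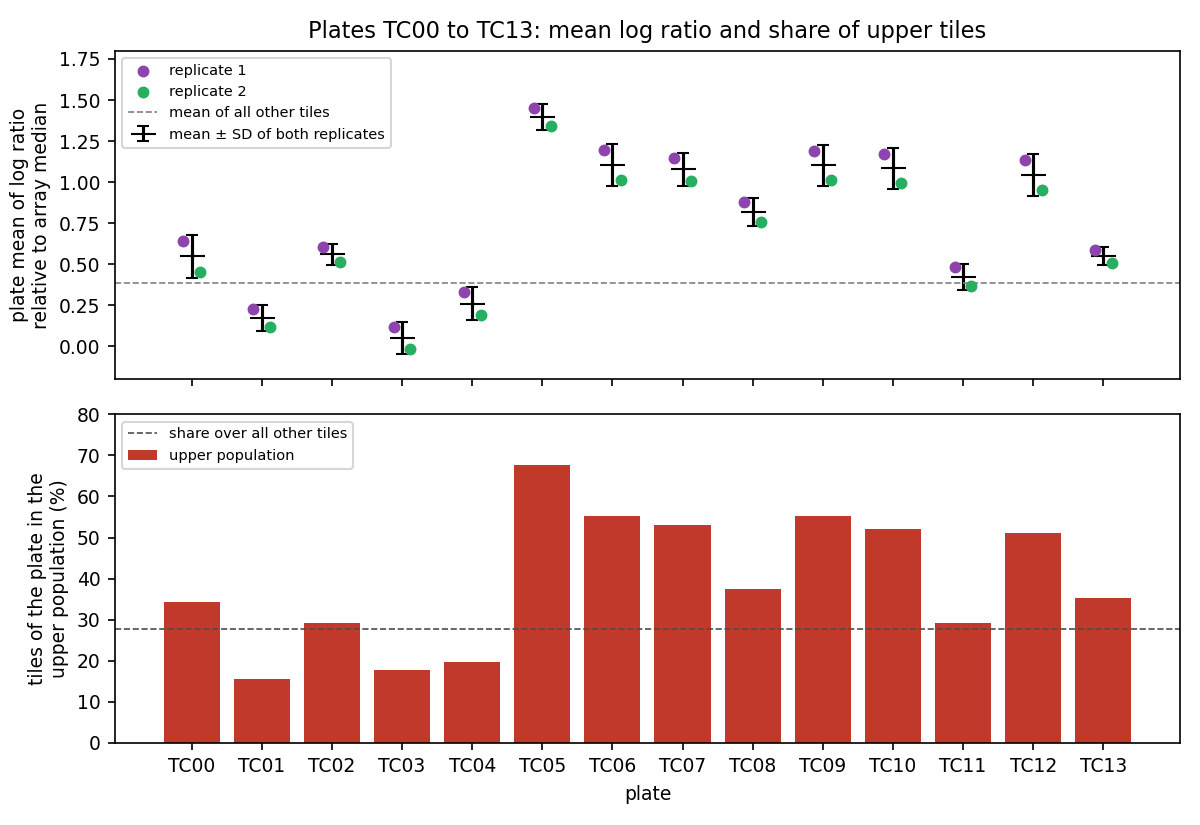
Upper panel, mean log ratio relative to the array median of each plate in each replicate (points), with the mean ± SD of both (black, n = 2). Lower panel, the percentage of tiles in the upper population. Dashed lines give the mean (0.39) and the share (27.7%) over all other tiles; replicate 1 lies above replicate 2 on all 14 plates.

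Division of the plates at TC05 was made after the profile had been seen, so the next values are a description. TC05 to TC10, with 576 tiles, averaged 1.17 in replicate 1 and 1.02 in replicate 2. TC00 to TC04, with 480 tiles, averaged 0.38 and 0.25. The gap was 0.79 in replicate 1 and 0.77 in replicate 2. Upper tiles made up 53.5% of TC05 to TC10 and 23.3% of TC00 to TC04. Upper tiles averaged 1.99 on TC05 to TC10 and 1.87 on TC00 to TC04. Lower tiles averaged -0.15 on TC05 to TC10 and -0.29 on TC00 to TC04. The populations are cut on the same ratio, which limits how far their levels can differ, so share and level are not weighed against each other.

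The stretch was set against the rest of the array, against the 4781 tiles of TB50 to TB99 that precede it and against the 1133 tiles of TC17 to TC30, a separate block of the same set. With 2 replicates an exact sign-flip test cannot give a two-sided p below 0.5, so none of these differences was tested. Tiles of TC00 to TC13 averaged 0.81 in replicate 1 and 0.67 in replicate 2, and the 20403 other tiles averaged 0.40 and 0.37. The difference was 0.41 in replicate 1 and 0.29 in replicate 2. Upper tiles of the stretch averaged 1.96, and upper tiles elsewhere 1.94, within the same cut-off. Lower tiles averaged -0.18 in replicate 1 and -0.29 in replicate 2 on the stretch, against -0.34 and -0.29 elsewhere.

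TB50 to TB99 was the closer match. Its mean was 0.84 in replicate 1 and 0.74 in replicate 2, so TC00 to TC13 lay 0.03 and 0.07 below it. The upper share was 39.7% on TC00 to TC13 and 41.2% on TB50 to TB99. Calls below the array median made up 21.5% on TC00 to TC13 and 16.0% on TB50 to TB99. From the block TC17 to TC30 the stretch differed by 1.43 in replicate 1 and 0.97 in replicate 2. That block averaged -0.62 and -0.31, and 11 of its tiles (0.971%) were upper.

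**Figure D3:**
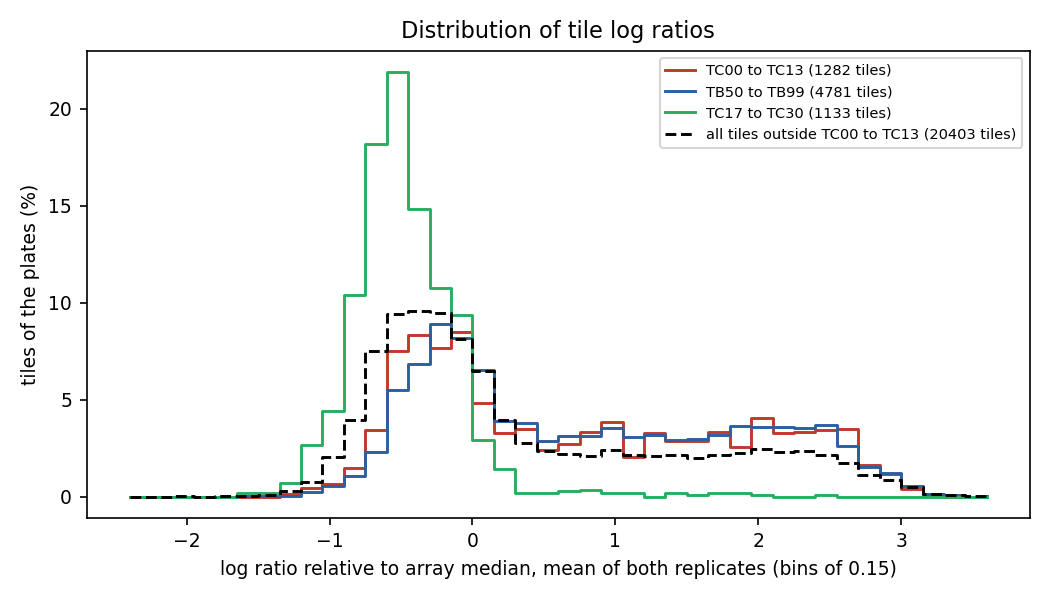
Percentage of tiles by log ratio relative to the array median (mean of both replicates, bins of 0.15) for TC00 to TC13, TB50 to TB99, TC17 to TC30 and all tiles outside TC00 to TC13. The curves of TC00 to TC13 and TB50 to TB99 run close together with a long high part, and TC17 to TC30 forms 1 low peak.

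Plate rows, which hold 12 consecutive tiles, gave a finer view. Over the 107 rows with at least 10 tiles the row means had an SD of 0.69, and the SD between replicates of a single row mean had a median of 0.10. No upper tile was found in 18 of these rows, and 8 rows held 10 or more. Of the 48 rows on TC05 to TC10, 5 held no upper tile, against 10 of the 40 rows on TC00 to TC04. The widest contrast inside a plate was on TC10, where the highest and lowest rows were 2.96 apart. Row means had the same sign in both replicates in 101 of the 107 rows.

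The highest row was row E of TC10, with a mean of 2.65 in replicate 1 and 2.67 in replicate 2. All 12 of its tiles were upper, from 2.18 to 3.10 in replicate 1 and from 2.43 to 3.04 in replicate 2. Row D of the same plate, just before it, was low at -0.30. Row C of TC05 followed, with means of 2.08 and 1.94 and all 12 tiles upper. In row H of TC10, next at 2.16 and 1.81, 11 tiles were upper, and its replicates were the furthest apart of any row. Over all tiles 28.4% were upper. The 3 rows were picked by their high means, so their counts of upper tiles follow in part from that choice.

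The lowest row was row C of TC03, at -0.42 in replicate 1 and -0.63 in replicate 2. Its tiles ran from -1.16 to 0.83 in replicate 1 and from -1.52 to 0.43 in replicate 2, and limma called 8 below the array median and 1 above. Row D of TC00 was nearly as low on average, at -0.45 and -0.58, but more even. There 11 of 12 tiles were called below, and none exceeded -0.13 in replicate 1 or -0.28 in replicate 2. Row G of TC11 averaged -0.50 and -0.41, with 8 tiles called below.

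**Figure D4:**
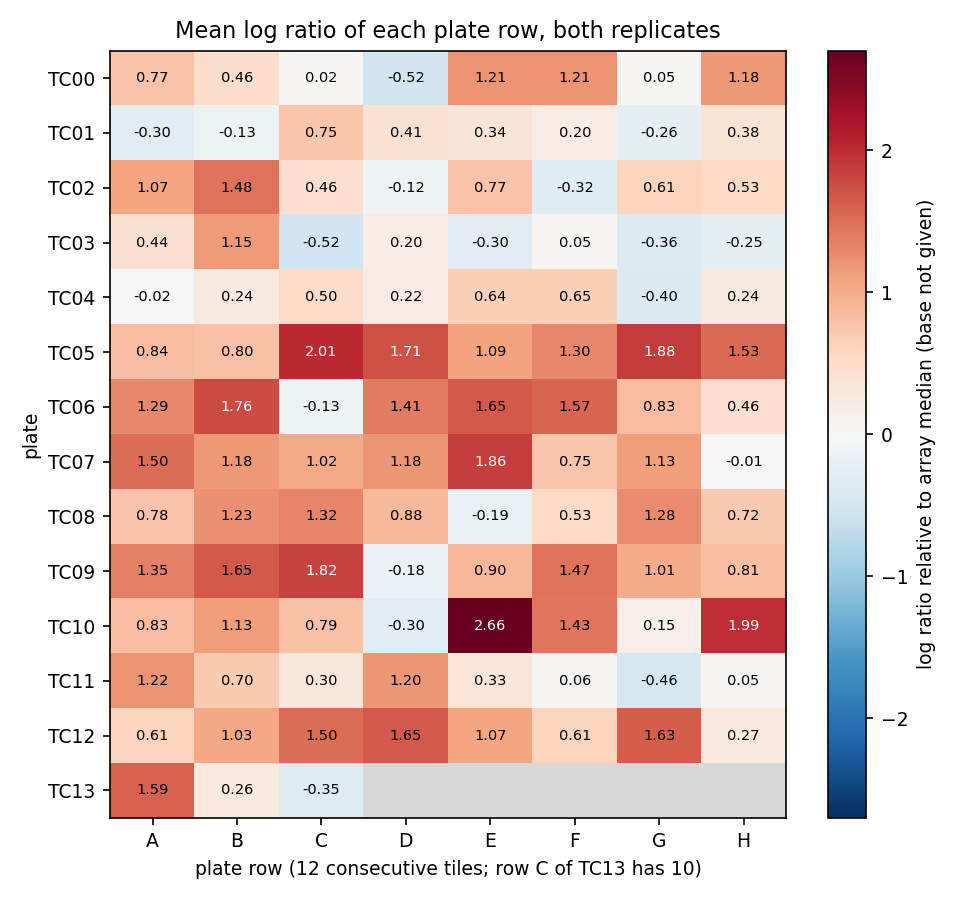
Mean log ratio relative to the array median (both replicates) of every plate row, with plates down the page and rows A to H across, as colour and number. Each cell holds 12 consecutive tiles, except 10 in row C of TC13, and grey cells hold no tile. Row E of TC10 is the highest cell (2.66) and row C of TC03 the lowest (-0.52).

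Among single tiles, those with the 2 highest and 2 lowest means were named. TC12B11 had 3.31 in replicate 1 and 3.11 in replicate 2 (mean 3.21, limma standard error 0.14, adjusted p = 5.91e-15). It lay inside a block of high tiles, with neighbours at 2.90 and 2.98. TC12B08 had 3.50 and 2.74 (mean 3.12, limma standard error 0.16, adjusted p = 1.02e-14). It had 2.14 before it and a single low tile, at -0.38, after it, and the next tile was again high, at 2.90. They ranked 40 and 67 from the top among all 21685 tiles.

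The lowest tiles were adjacent. TC03C07 had -1.10 in replicate 1 and -1.47 in replicate 2 (mean -1.29, limma standard error 0.14, adjusted p = 1.46e-08). TC03C08 had -0.96 and -1.52 (mean -1.24, limma standard error 0.15, adjusted p = 6.05e-08). The tile after them was also low, at -1.08, and the tile before them was at -0.38. They ranked 48 and 67 from the bottom of the array.

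Upper tiles came in runs. The 509 upper tiles fell into 141 runs along the order, 3.61 tiles long on average with a median of 3. Single tiles made up 30 of the runs and pairs made up 35. At the other end, 36 runs of 5 or more held 274 upper tiles (53.8%). These values were close to those elsewhere. Runs averaged 3.64 tiles on TB50 to TB99, where 53.3% of upper tiles lay in runs of 5 or more. On the rest of the array they averaged 3.48 tiles, and the share was 50.1%. Run length differed along the stretch. Counted within each section, runs on TC05 to TC10 averaged 4.28 tiles, and 63.6% of upper tiles lay in runs of 5 or more. Those on TC00 to TC04 averaged 2.55 tiles, and 30.4% of upper tiles lay in such runs. Runs lengthen as the share of upper tiles rises, and the sections were divided after the profile had been seen, so these lengths are a description. Of the 10 runs of 9 or more tiles, 9 began on TC05 to TC10 and the other on TC12.

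The longest run held 16 tiles, from the start of row C of TC05 into row D. It averaged 2.18 in replicate 1 and 2.06 in replicate 2, and the tiles just outside it had 0.94 before and 0.81 after. With a posterior above 0.5 in place of 0.99, the longest run held 28 tiles. The next, of 15 tiles, ran from the start of row E of TC10 into row F and averaged 2.55 and 2.53. The tile before it was at -0.34 and the tile after it at 0.72. The third, of 14 tiles, ran from row H of TC10 across the plate end into row A of TC11. It averaged 2.21 and 1.83, a wider gap between replicates than in the other two.

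The level was lowest in runs of 1 tile, at 1.63, and highest in runs of 9 or more, at 2.15, in both replicates. Pairs averaged 1.90, runs of 3 to 4 tiles 1.86 and runs of 5 to 8 tiles 1.99. Runs were defined by a cut-off on the same values, so the level in them is a description. Across the 36 runs of 5 or more, the first tile averaged 1.91, the second 2.10 and the middle tile 2.02. The last but one averaged 2.11 and the last 1.81. The tiles just outside averaged 0.23 before and 0.26 after. A run ends where a tile misses the cut-off, so a drop at its ends follows from how runs were defined.

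Long gaps with no upper tile were found mainly on TC00 to TC04, which also had a lower share of upper tiles than TC05 to TC10. Of 8 gaps with 20 or more tiles, counted within each section, 2 lay on TC05 to TC10 and 5 on TC00 to TC04. The longest held 42, from row F of TC03 to row A of TC04. It averaged -0.25 in replicate 1 and -0.31 in replicate 2, and it ended at a tile of 2.29. The second longest held 35 tiles, from row F of TC11 to row A of TC12, with means of -0.18 and -0.27. The third held 28, from row F to row H of TC04, at -0.23 and -0.32. A gap of 26 tiles from row G of TC07 to row A of TC08 was higher, at 0.17 and 0.05. Single gaps of this length were thus not at 1 common level. No gap holds an upper tile, so low means follow in part from how gaps were defined. The 8 gaps of 20 or more held 220 of the 1282 tiles. On TB50 to TB99, 17 such gaps held 435 of 4781 tiles, and on the rest of the array 157 held 6981 of 20403.

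Tiles next to each other had similar ratios. Pearson r over 1281 consecutive pairs was 0.668 (0.656 in replicate 1 and 0.668 in replicate 2). At 2 identifiers apart it was 0.416, at 5 it was 0.220 and at 12 it was 0.085. These pairs share tiles and arrays, so r is a description. Within plate rows r was 0.668 over 1175 pairs, and across row ends it was 0.678 over 93 pairs. Across plate ends it was 0.635, over only 13 pairs. Whether plate geometry affected r was not tested. For TB50 to TB99 the values were 0.665 for consecutive tiles and 0.119 at 5 identifiers. For all contiguous plates before TC00 they were 0.726 and 0.273, both higher than on the stretch. After an upper tile the next tile was upper in 72.3% of cases on TC00 to TC13 and in 71.6% on the rest of the array. After a lower tile the next was lower in 79.5% of cases on TC00 to TC13, in 79.7% on TB50 to TB99 and in 88.0% on the rest of the array.

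**Figure D5:**
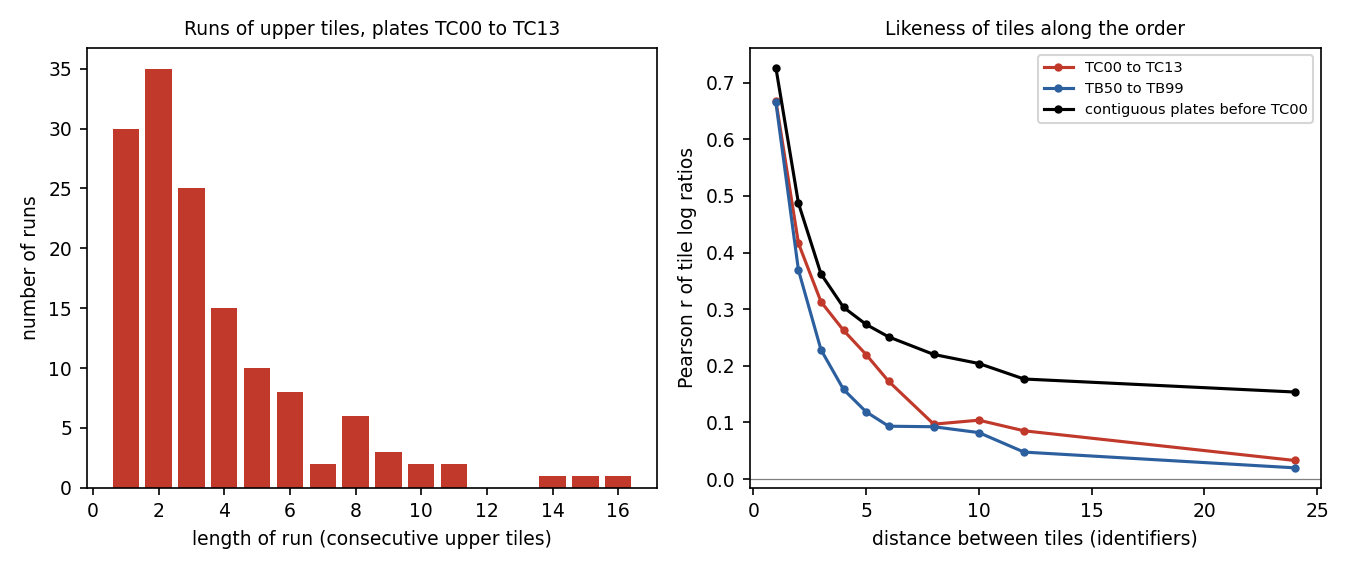
Left, number of runs of each length, counted in consecutive upper tiles, on TC00 to TC13. Right, Pearson r of tile log ratios against the distance between tiles in identifiers for TC00 to TC13, TB50 to TB99 and the contiguous plates before TC00. Most runs are short, with 1 run each of 14, 15 and 16 tiles, and r on TC00 to TC13 falls to 0.085 at 12 identifiers.

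The end of the order was low. Row A of TC13 averaged 1.59 and held 8 upper tiles, row B averaged 0.26 with 4 upper tiles, and row C averaged -0.35 with none. After the last upper tile, 11 tiles remained, with means of -0.26 in replicate 1 and -0.34 in replicate 2. Lower tiles of the whole stretch averaged -0.18 in replicate 1 and -0.29 in replicate 2. The 11 tiles hold no upper tile by choice, so their low values follow in part from how they were picked. Of these 11, limma called 6 below the array median and 1 above. The start of the stretch joined plate TB99 without a jump of that size. Row A of TC00 averaged 0.86 in replicate 1 and 0.68 in replicate 2, against 0.61 and 0.48 in row H of TB99.

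The position of a tile in its plate went with smaller differences than those between plates. By plate row the means over TC00 to TC13 lay between 0.55 (row G) and 0.93 (row E), and by plate column between 0.57 (column 11) and 0.86 (column 9). With at most 14 plates, such means also carry the tiles that happened to fall there. Whether position in the plate affected the ratio was not tested.

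The replicates ordered the tiles alike, with an offset. Pearson r between replicates over the 1282 tiles was 0.977 and Spearman rho was 0.965, as descriptions across tiles. They were 0.972 and 0.960 on TB50 to TB99, and 0.967 and 0.928 over all tiles outside the stretch. Replicate 1 lay above replicate 2 by 0.14 on average, with an SD over tiles of 0.24, and was higher at 906 tiles (70.7%). On TB50 to TB99 the offset was 0.10, with replicate 1 higher at 65.8% of tiles. Over all tiles outside the stretch it was 0.02, with replicate 1 higher at 54.6%. The offset was present on all 14 plates, from 0.08 on TC13 to 0.19 on TC00. It was 0.17 in upper tiles of the stretch and 0.17 in upper tiles elsewhere. In lower tiles it was 0.11 on the stretch and -0.05 over all tiles outside it. Among the latter, lower tiles of TB50 to TB99 had 0.05 and those of TC17 to TC30 had -0.32. Quantile normalization of the replicates left an offset of 0.075 on the stretch. Whether the extract pairs or the arrays gave this offset was not tested.

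A single tile, in row G of TC12, differed by more than 1 between replicates. It had 3.69 in replicate 1 and 1.62 in replicate 2, while the tile after it had 2.34 and 2.28. It was singled out after its values had been seen. Fitted to each replicate alone, the mixture placed 499 tiles of the stretch in the upper population in replicate 1 and 473 in replicate 2. These were 38.9% and 36.9% of the stretch, against 27.4% and 26.0% of all tiles. The 461 shared tiles were 92.4% of the first list and 97.5% of the second.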

How the data were processed

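The values deposited by the authors are log ratios, 1 for each tile on each array. On their base, direction, background correction, normalization and build, nothing is stated in the labels. Both arrays of a dye-swap pair were identical at all 21685 tiles with a value, and they were averaged to 1 profile per replicate, so no dye effect could be estimated. The deposited medians were -1.22 in replicate 1 and -1.10 in replicate 2, and each replicate was centred on its own median.

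The mean of each tile was compared with 0 by limma (version 3.58.1, R 4.3.3; an intercept-only lmFit, then eBayes, with Benjamini-Hochberg adjustment over all tiles). The 2 replicates left 1 residual degree of freedom and the prior over all tiles added 23.1, so the p-values rest mostly on the spread over all tiles. Populations came from a normal mixture with 2 components over the mean profile of all tiles, computed in scikit-learn 1.9.0. An upper tile had a posterior above 0.99, and a lower tile was more probably of the lower component. Both procedures were tested on simulated data with independent tiles, drawn from the models they assume. This was a check of the code and does not show that those models hold for these tiles. The number of arrays limits the precision.

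Tiles were ordered by plate, row and column. Named tiles are the 2 highest and 2 lowest called tiles whose replicates share their sign. The named rows are the 3 highest and 3 lowest with at least 10 tiles. The plates, lists and tests were chosen with earlier results of these data known. Other centring, normalization, thresholds and populations were tried. Gene lists were not used, since no tile is paired with a gene here.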

Additional observations from a re-analysis of the deposited data

How the results depend on the processing

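With no centring, 390 tiles of TC00 to TC13 were called above 0 and 733 below, and their mean was -0.43. The 733 were all 640 lower tiles and 93 of those between the populations. When treat asked for a size of at least 0.5, 20 tiles were called below. Turning every sign exchanges the counts of calls, to 275 above and 685 below. It also turns the mean to -0.74, the differences to -0.35 (rest of the array), 0.052 (TB50 to TB99), -1.20 (TC17 to TC30) and -0.78 (TC05 to TC10 minus TC00 to TC04), and the gap from TC03 to TC05 to -1.35. The upper share was 50.1% with a posterior above 0.5, 22.1% for the upper of 3 components and 53.4% for tiles called above by limma, against 36.2%, 15.2% and 38.9% of all tiles. It was 38.9% in replicate 1 alone and 36.9% in replicate 2 alone, against 27.4% and 26.0% of all tiles. The longest run was 28 tiles with a posterior above 0.5 and also for tiles called above. The correlation of consecutive tiles was 0.615 with plate means taken off, and 0.656 and 0.668 in single replicates. The offset between replicates was 0.075 after quantile normalization. The mean was 0.81 in replicate 1 alone and 0.67 in replicate 2 alone. In single replicates the differences ran from 0.29 to 0.41 (rest), -0.07 to -0.03 (TB50 to TB99) and 0.97 to 1.43 (TC17 to TC30). That of TC05 to TC10 minus TC00 to TC04 ran from 0.77 to 0.79. The 4 named tiles kept their sign in every setting tried, which did not include turned signs. A single replicate has no residual degree of freedom, so calls were not made without either one. Using 1 array of each pair was not run, since both hold the same values.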
